A study of Mus musculus with 298 samples.

Results

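The cells described here are the firing neurons of the mouse suprachiasmatic nucleus (SCN) that carried RNA for Vip, collected by day or at night. They were selected on their measured Vip level, as the cells labelled active with at least 100 CPM of Vip, where CPM is the count of a gene scaled to a fixed total of counts in the cell. This left 39 cells, 13.1% of all those sequenced: 20 of 78 active day cells and 19 of 87 active night cells. The SCN is the hypothalamic clock of the brain. Its cells were recorded by patch clamp in brain slices, and the cytoplasm of each was drawn into the recording pipette for RNA sequencing with the Nextera XT kit. Mice lived under 12 h of light and 12 h of dark. Slices for the day cells were cut near ZT0, which is lights on, and slices for the night cells near ZT12, which is lights off. Of the day cells 17 were labelled cFOS+ and 3 cFOS-, and of the night cells 12 were cFOS+ and 7 cFOS-. The labels do not say how the cFOS label was assigned, nor the strain or age of the mice. Several neurons could come from one slice, and the labels name no mouse or slice. Each side was therefore treated as 1 sample, and no difference between day and night was tested.

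VIP, vasoactive intestinal peptide, is made by neurons of the SCN core, which receive input from the retina. VIP acts through the receptor VPAC2, encoded by Vipr2, and keeps SCN neurons in step with each other. In each of these cells CLOCK and BMAL1 drive the Per, Cry and Nr1d genes through E-boxes in their promoters, PER and CRY proteins repress that drive, and REV-ERB proteins repress Arntl, the gene of BMAL1. SCN neurons as a whole fire more by day than at night, but the cells here were all firing, so the comparison holds the recorded state alike and asks what else differed with time of day.

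Vip chose the cells, so its level is given as a description. By day it ran from 221 to 36050.3 CPM with a median of 8054 CPM, and at night from 237.8 to 58224 CPM with a median of 12179 CPM. Summed over each side it was 11219.9 CPM by day (95% Poisson interval 11202 to 11238) and 19465 CPM at night (19440.2 to 19490.0). The ranges overlapped almost entirely, although 5 night cells lay above the highest day cell. Just inside the limit were day cell S411 at 221 CPM, night cell S560 at 237.8 CPM and day cell S92 at 707 CPM. Just outside it was day cell S482 at 76.9 CPM, and the next 2 cells outside it held under 1 CPM. Of the active cells left out, 116 had no Vip read and 10 had a level above 0. The share of active cells past the limit was 25.6% by day (95% Clopper-Pearson interval 16.4 to 36.8) and 21.8% at night (13.7 to 32.0). These intervals cover counting error only and not the spread between mice or slices.

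The 39 cells held 3222140 to 12806483 counts each, with medians of 6448282 by day and 6392401 at night, and 2361 to 7648 detected genes. The 12 neuron markers summed to 2818 CPM or more in every cell, and Gad1, which makes the transmitter GABA, had a read in every cell. RNA of other cell types was also present. The 12 microglia markers reached 100 CPM in 7 of 20 day and 7 of 19 night cells, with medians of 27.2 and 5.72 CPM and highest values of 8204 CPM by day (S411) and 4057 CPM at night (S285). Of the 12 microglia markers 11 were higher by day, with a median ratio of 2.83, and the defining genes P2ry12, Tmem119, Cx3cr1 and Aif1 were at 0 in every night cell. Astrocyte markers had a day median of 284.6 CPM and a night median of 339.5 CPM, and 10 of 12 had their higher sum by day. The part of this RNA in the differences below was not tested, but counts without the cells of high microglia RNA are given. Cell S92 stood apart, with 12982 CPM of astrocyte and 9375 CPM of oligodendrocyte markers. Beside its microglia RNA, S411 held 6328 CPM of astrocyte and 1549 CPM of oligodendrocyte markers. S411 and S560 were also the cells nearest the Vip limit. Counts are therefore also given without S92, and without S411 and S560. No pair among the 741 pairs of cells had near-identical profiles; the highest correlation of log2 (CPM + 1) was 0.560.

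Genes differed widely between the sides, and slightly more often toward night. A gene entered this count with at least 20 CPM in one side and a read in at least 25% of that side's cells, and ratios are log2 of (CPM + 1) by day over (CPM + 1) at night, with counts summed over the cells of a side. Of 6975 such genes 1057 (15.2%) were at least 2-fold higher by day and 1383 (19.8%) at least 2-fold higher at night, and the median ratio was -0.05. Without S92 the counts were 996 and 1443, and without S411 and S560 they were 1055 and 1313. Without the cells of high microglia RNA they were 1106 by day and 1881 at night. When the mean over cells and the sum without the highest cell of each side had to pass 2-fold too, 789 genes (11.3%) remained by day and 1162 (16.7%) at night. In the cells with higher numbers in their titles (9 day and 5 night cells) the order turned, with 1817 genes by day and 1797 at night. With 1 sample a side these counts describe these sets of cells and carry no error beyond counting.

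**Figure D1:**
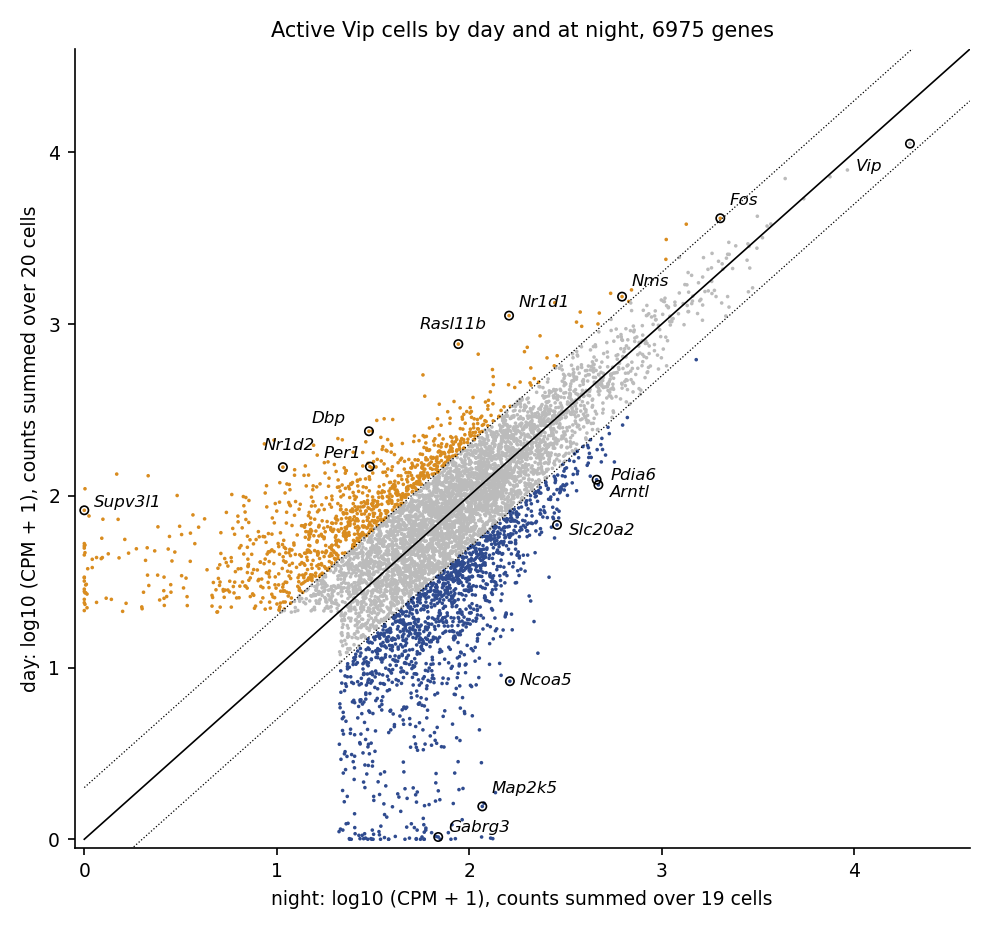
Level of 6975 genes in active Vip cells, as log10 (CPM + 1) of the counts summed over 19 night cells (horizontal axis) and 20 day cells (vertical axis), with equality as a solid line and 2-fold as dotted lines. Orange points are at least 2-fold higher by day and blue points at least 2-fold higher at night; Nr1d1, Dbp and Rasl11b lie above the lines, Arntl, Pdia6 and Slc20a2 below them, and Vip within them.

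Clock genes lay on both sides. At least 2-fold higher by day were Nr1d1, Nr1d2, Per1, Dbp, Tef, Ciart, Bhlhe41, Csnk1e and Rorb, and at least 2-fold higher at night were Arntl, Clock, Npas2, Bhlhe40 and Csnk1d. Of the 24 in the list with at least 5 CPM in one side, 13 had their higher sum by day, against 47.7% of all 11183 genes over 5 CPM. By at least 2-fold 9 were higher by day, against 21.6% of all genes, and 5 were higher at night, against 26.1% of all genes. The median ratio of the list was 0.34, and that of all genes was -0.07. Without S92, and also without S411 and S560, 14 of the members were higher by day, and without the cells with microglia RNA 15 were.

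The repressors of Arntl were high in most day cells. Nr1d1 encodes REV-ERB alpha (chromosome 11, 98767932 to 98775333 in GRCm38). It ran from 0 to 4686 CPM by day with a median of 1312 CPM, and from 0 to 770.1 CPM at night with a median of 15.4 CPM. In 11 of the day cells Nr1d1 lay above every night cell, while the lower day cells overlapped with night. The sums were 1119 CPM (1113 to 1124) and 160.0 CPM (157.7 to 162.2), a log2 ratio of 2.80, which stayed between 2.64 and 3.18 when any 1 cell was left out. Thra, a thyroid hormone receptor gene, overlaps the end of Nr1d1 on the opposite strand, and its level was 308 CPM in the day sum and 76.3 CPM in the night sum. The kit does not mark strand, so reads of this pair in their shared stretch cannot be told apart. Nr1d2, which encodes REV-ERB beta, had a day median of 60.8 CPM and a highest day cell of 767 CPM, against a night median of 0 and a highest night cell of 293.4 CPM. It reached 10 CPM in 13 day cells and in 2 night cells, and its log2 ratio was 3.77.

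Regulators of clock output were divided: Dbp, Ciart, Tef, Hlf and Bhlhe41 were higher by day, and Bhlhe40 and Nfil3 at night. Dbp, a transcription factor driven directly by CLOCK and BMAL1, ran from 0 to 1300.0 CPM by day with a median of 139 CPM, and from 0 to 257.1 CPM at night with a median of 0. It reached 10 CPM in 15 day and 4 night cells, for a log2 ratio of 2.98. Ciart, a repressor of the CLOCK and BMAL1 complex, had a day median of 79.7 CPM and a highest day cell of 1600.5 CPM. At night Ciart was read in 3 cells, the highest at 259 CPM, and its log2 ratio was 2.80. Tef, a relative of Dbp, had a log2 ratio of 1.78 and was read in 14 day and 5 night cells, but its ratio was -1.60 in the cFOS- cells alone. Hlf had medians of 78.9 and 0 CPM and reached 10 CPM in 14 day and 4 night cells. Its ratio was 0.76 in the sums, with a highest night cell of 1001 CPM, and 2.97 without the highest cell of each side. Bhlhe41, a repressor also called DEC2, was read in all 20 day and all 19 night cells, with medians of 38.6 and 2.70 CPM and a log2 ratio of 3.03. In Bhlhe41 7 of the day cells lay above the highest night cell at 79.9 CPM. Its close relative Bhlhe40, or DEC1, was on the opposite side, with sums of 50.1 and 155 CPM, a ratio of -1.61 and 4 day and 9 night cells at 10 CPM or more. Nfil3, a repressor at D-boxes, had a ratio of -0.61.

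The core period and cryptochrome genes were split. Per1 ran from 0 to 922 CPM by day with a median of 82.1 CPM, and from 0 to 219 CPM at night with a median of 9.73 CPM. It lay above every night cell in 6 day cells, and its log2 ratio was 2.28. Per2 had sums of 269 and 283.8 CPM and a log2 ratio of -0.08, with medians of 80.0 and 293.3 CPM that ordered the sides more strongly than the sums did. Per3 and Cry1 had ratios of -0.40 and -0.42, and Cry2 of 0.86. The summed levels of Per2, Per3, Cry1 and Cry2 were all under 2-fold apart, but Cry2 was past it as the mean over cells (1.24) and without the highest cells (1.06). In the cFOS- cells alone, 3 by day and 7 at night, the ratio was -6.03 for Per3, -2.55 for Cry1 and -2.58 for Cry2. Csnk1e, a kinase that acts on PER proteins, had a ratio of 2.70, with reads in 15 day and 6 night cells, but a ratio of -1.40 in the cFOS- cells alone. Csnk1d, a second such kinase, had the opposite pattern, at -1.31 and 0.98 in the cFOS- cells.

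The positive arm was higher at night. Arntl (chromosome 7, 113207465 to 113314126 in GRCm38) ran from 0 to 666 CPM by day with a median of 0, and from 0 to 1326 CPM at night with a median of 377.9 CPM. It was read in 8 of 20 day cells and 17 of 19 night cells, and the same numbers held after each cell was thinned to 3220000 reads. The share by day had a Clopper-Pearson interval of 19.1% to 63.9%, and that at night one of 66.9% to 98.7%, both for counting error only. The sums were 115 and 468 CPM, a log2 ratio of -2.02, and 4 night cells lay above the highest day cell. Clock had sums of 34.1 and 151 CPM and a ratio of -2.11, with 1 night cell, S560, at 1517 CPM. Npas2, a relative of Clock, was read in 1 day and 5 night cells, at 27.2 CPM over the night side. Rorb, which encodes an activator of Arntl and marks SCN neurons, went the other way, with 226 CPM by day, 93.9 CPM at night and a ratio of 1.26.

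**Figure D2:**
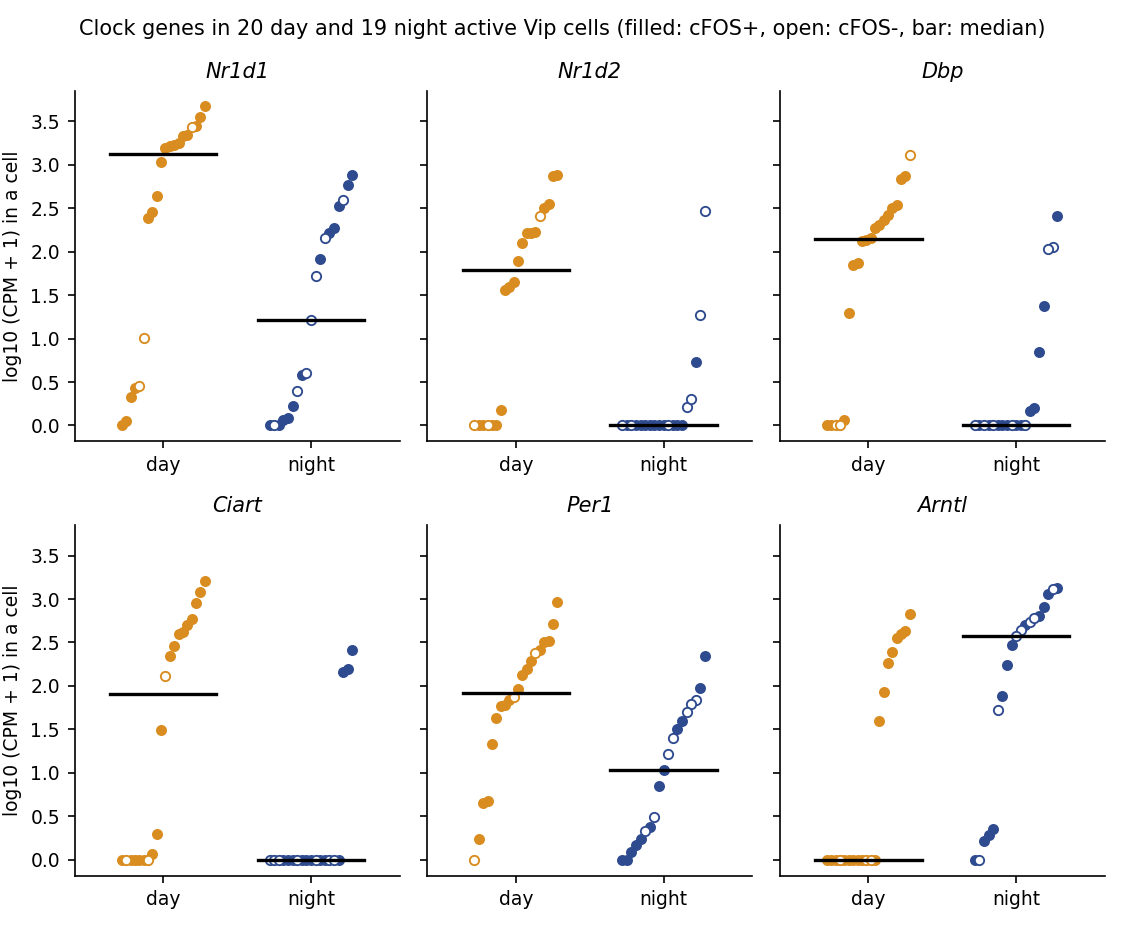
Level of 6 clock genes in each active Vip cell, as log10 (CPM + 1), for 20 day cells (orange) and 19 night cells (blue); filled points are cFOS+, open points cFOS-, and bars are the median CPM of a side on the same axis. Nr1d1, Nr1d2, Dbp, Ciart and Per1 had higher medians by day, and Arntl had a median of 0 by day and 377.9 CPM at night.

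Several of these clock genes were less far apart in the active cells with under 100 CPM of Vip (58 by day, 68 at night). There the log2 ratio was 1.08 for Nr1d1, 0.65 for Nr1d2, 1.44 for Dbp, 1.31 for Ciart, 0.57 for Per1, 0.08 for Bhlhe41 and -1.03 for Arntl. These genes stood out in the Vip cells, so smaller ratios elsewhere could follow from that choice alone. Some other members were farther apart in the other active cells. Hlf was at 1.97 against 0.76 in the Vip cells, Btrc at 1.13 against -0.34, and Nfil3 at 0.91 against -0.61. In the other active cells 17 of 25 members of the list lay on the day side, and the median ratio was 0.29. The difference between the sets of cells was not tested, since each is 1 sample a side.

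Promoter sequences of clock genes are shown because these genes differed between the sides and are the textbook targets of E-boxes and of the REV-ERB element. The windows run from 250 bases before to 50 bases after the start site (RefSeq, GRCm38.p6), and both strands were searched for the E-box CACGTG, the D-box TTATGTAA, the REV-ERB and ROR core TAGGTCA and the cAMP response element TGACGTCA. None of these motifs contains another. Of 32851 windows of that length 7.15% held the E-box, 0.938% the D-box, 2.61% the REV-ERB and ROR core and 1.79% the cAMP response element. Some genes had several windows, and a gene was counted if any of its windows held the motif. Counts of genes are therefore not on the same footing as these percents of windows. All 9 clock genes at least 2-fold higher by day had a window, and 4 of them, Per1, Tef, Bhlhe41 and Ciart, held an E-box. Per1 and Arntl each also had a window with none of the motifs. Of the 5 that were higher at night 3 had a window, and Arntl held the REV-ERB and ROR core. Among the 10 clock genes under 2-fold 7 had a window, in which Cry1 held an E-box, Per3 a D-box, Nfil3 the REV-ERB and ROR core and Hlf a cAMP response element. Prok2, a secreted output peptide of the SCN described with the peptides, held an E-box too. Dbp, Nr1d1 and Nr1d2 held none of the motifs in these windows, which says only that the letters are not there. The matches with their surroundings follow, on the strand of the gene, with the motif in capitals: Per1 at chr11:69098743-69098828, Ciart at chr3:95882229-95882384, Bhlhe41 at chr6:145865528-145865613, Tef at chr15:81811236-81811321, Prok2 at chr6:99726482-99726567 and Arntl at chr7:113207530-113207558. Ciart held 3 E-boxes in its window.
Per1: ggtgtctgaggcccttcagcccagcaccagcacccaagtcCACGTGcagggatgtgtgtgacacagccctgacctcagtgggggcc
Ciart: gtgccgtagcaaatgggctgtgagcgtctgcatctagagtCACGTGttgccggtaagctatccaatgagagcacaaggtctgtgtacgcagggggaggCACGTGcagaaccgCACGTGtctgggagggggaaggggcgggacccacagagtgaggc
Bhlhe41: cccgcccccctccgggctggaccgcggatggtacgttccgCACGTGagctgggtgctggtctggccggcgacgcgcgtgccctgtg
Tef: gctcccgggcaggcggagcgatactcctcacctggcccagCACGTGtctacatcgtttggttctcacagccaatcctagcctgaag
Prok2: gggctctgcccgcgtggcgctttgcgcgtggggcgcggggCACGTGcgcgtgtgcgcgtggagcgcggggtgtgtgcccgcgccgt
Arntl: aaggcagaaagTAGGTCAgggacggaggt

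Phosphate carriers did not share a direction. Slc20a2, which encodes the sodium-dependent importer PiT-2, was about 4-fold higher at night, while the sums of the importer Slc20a1 (PiT-1) and the exporter Xpr1 lay close to equal. The list held 11 measured genes for phosphate carriers and for kinases that make inositol phosphates or inositol pyrophosphates. Of these 4 were higher by day, none of them by 2-fold, and 3 were at least 2-fold higher at night. The shares over all genes were 47.7% higher by day and 26.1% at least 2-fold higher at night, so the night count of the list was near the background. The median ratio was -0.16. The count higher by day was also 4 without S92, and without S411 and S560, but 1 in the cFOS- cells, 2 without the cells with microglia RNA and 2 in the cells with higher numbers in their titles.

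Slc20a2 ran from 0 to 484.8 CPM by day with a median of 0, and from 0 to 1014 CPM at night with a median of 305.9 CPM. It reached 100 CPM in 4 of 20 day and 10 of 19 night cells, and 6 night cells lay above the highest day cell. The remaining night cells overlapped with day. Summed levels were 66.6 CPM by day (65.2 to 68.1) and 284.6 CPM (281.6 to 287.7) at night, a log2 ratio of -2.08. With any 1 cell left out the ratio stayed between -2.65 and -1.84, and it was -2.27 in the cFOS+ and -1.49 in the cFOS- cells. In the other active cells the levels were 45.4 and 46.3 CPM, a ratio of -0.03.

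Slc20a1 had a day median of 201.6 CPM and a night median of 99.2 CPM, and its highest cells were at 1339 and 1096.5 CPM. Its sums, 255.3 and 235.7 CPM, gave a ratio of 0.11. Xpr1 had medians of 0.044 and 8.97 CPM, sums of 71.7 and 61.6 CPM and a ratio of 0.22, and the order of its medians was opposite to that of its sums. The ratio of Xpr1 was -3.17 in the cFOS- cells and -5.14 in the cells with higher numbers, and that of Slc20a1 was -1.11 in the cFOS- cells. Inositol pyrophosphates are the signals that bind the regulatory domain of XPR1, and Ip6k1, Ip6k2 and Ppip5k1 encode kinases that make them. Ip6k1 had a day median of 12.95 CPM and a night median of 328.01 CPM. Its sums were 157.5 and 348.9 CPM, a ratio of -1.14, and 7 night cells lay above every day cell. The Ip6k1 ratio was 0.30 in the other active cells. Ppip5k1 had a ratio of -1.20 and Ip6k2 of -0.72. Slc25a3, the mitochondrial phosphate carrier, was level, at 799.7 and 791 CPM.

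Nms and Prok2 were the peptides higher by day, and receptor RNA for VIP itself was higher at night. Of 12 measured neuropeptide genes 2 were higher by day, both by at least 2-fold, and 7 were at least 2-fold higher at night. On all 3 scales 2 of each passed. The 12 include Vip, which chose the cells and had its higher sum at night, by under 2-fold. Over all genes 21.6% were at least 2-fold higher by day and 26.1% at night, and 12.8% and 17.9% on all 3 scales. The median ratio was -2.89, or -5.41 with genes at 0 in a side set to their bound, but it was -0.02 without the highest cell of each side; most of these genes were read in few cells. Nms, neuromedin S, had a day median of 1030 CPM and a highest day cell of 7202 CPM, against 318.5 and 3523 CPM at night. Its sums were 1443 and 621 CPM, a ratio of 1.22, but the ratio was -0.03 in the cFOS- cells and -0.38 in the cells with higher numbers in their titles. Prok2, prokineticin 2, ran to 899 CPM by day with a median of 31.3 CPM, and to 168.6 CPM at night with a median of 0. Its ratio was 2.62, with 10 day and 7 night cells at 10 CPM or more. Avp was read in 4 cells of each side and reached 6297 CPM in night cell S289, against 85.8 CPM in the highest day cell. Nts, at 475.1 CPM over the night side, came almost wholly from night cell S309 at 6046 CPM. Penk and Grp had ratios of -0.72 and -0.53 with overlapping ranges.

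Vipr2 ran from 0 to 676 CPM by day with a median of 0, and from 0 to 1953 CPM at night with a median of 7.49 CPM. It reached 100 CPM in 5 day and 8 night cells, and 3 night cells lay above the highest day cell. The sums of 99.6 and 323 CPM gave a ratio of -1.69, against -0.15 in the other active cells. Among 10 measured peptide receptor genes 3 were at least 2-fold higher by day and 5 at night, and 2 and 3 were so on all 3 scales. Over all genes the shares were 21.6% and 26.1%, and 12.8% and 17.9% on all 3 scales, so these are gaps of few genes. Avpr1a, a vasopressin receptor, had a ratio of 1.88 with reads in 3 day and 2 night cells, and of -4.16 in the cFOS- cells. Oprl1, the nociceptin receptor, had 103 and 34.01 CPM, a ratio of 1.57 that became -4.74 in the cFOS- cells.

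**Figure D3:**
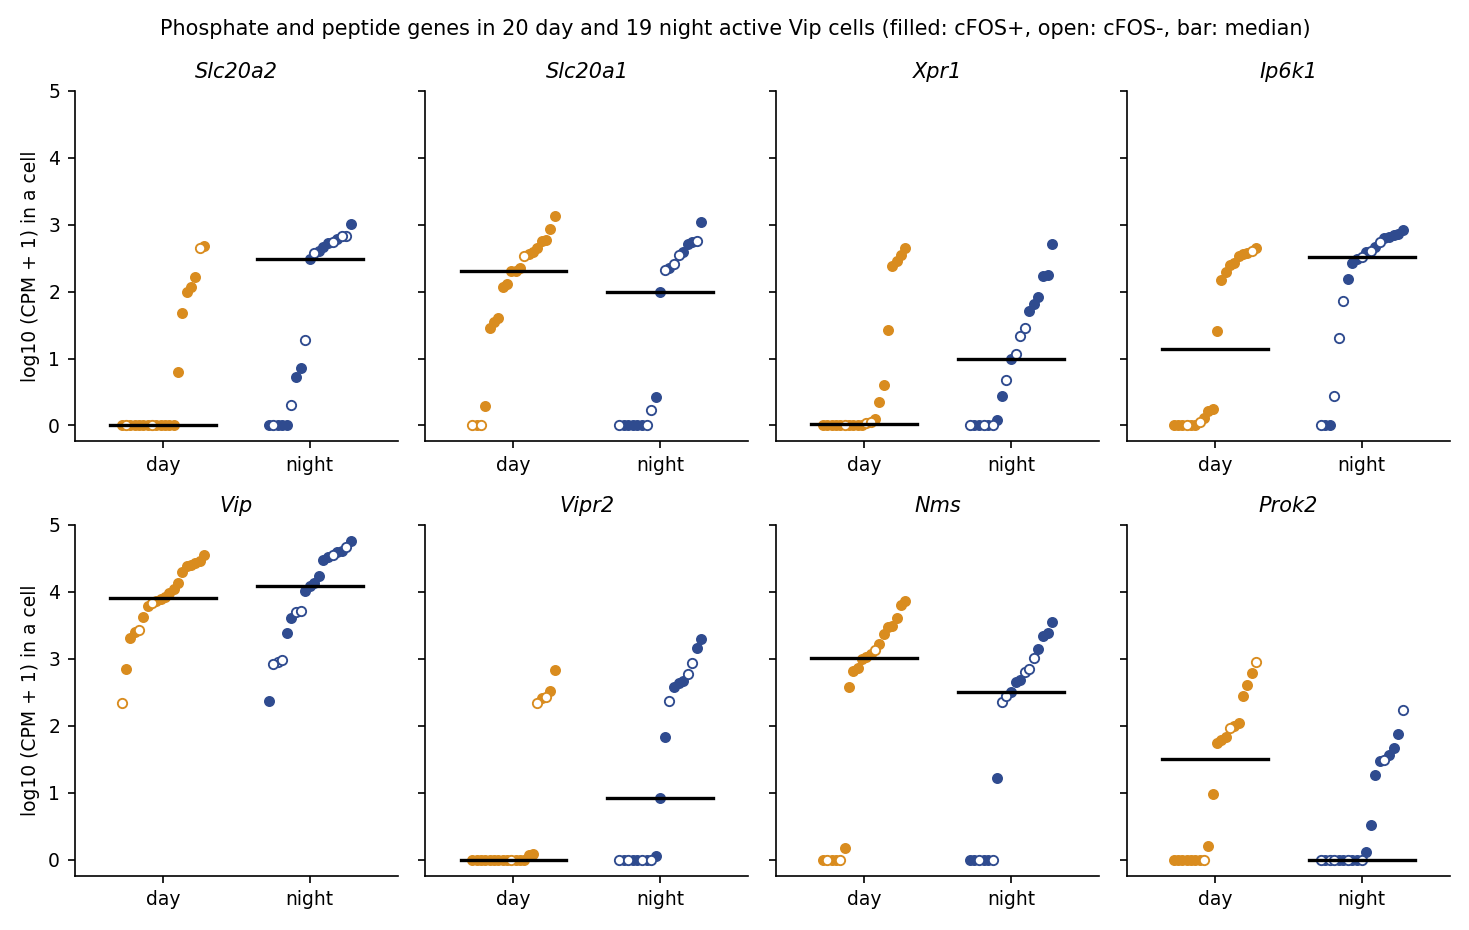
Level of 4 phosphate genes, Vip, Vipr2 and 2 peptide genes in each active Vip cell, as log10 (CPM + 1), for 20 day cells (orange) and 19 night cells (blue); filled points are cFOS+, open points cFOS-, and bars are the median CPM of a side on the same axis. The Slc20a2 bar sits at 0 by day and at 305.9 CPM at night, while Slc20a1 and Xpr1 spread over the same range on both sides.

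Respiratory genes of the nucleus were higher by day almost without exception, by small amounts. Of 40 measured genes for subunits of the respiratory chain and ATP synthase 38 were higher by day, against 47.7% of all genes, with a median ratio of 0.48 and a range from -0.58 to 1.27. One of them, Ndufb9, a subunit of complex I, passed 2-fold. The count was 34 without S92, 38 without S411 and S560, and 28 in the cFOS- cells alone. Among active cells under the Vip limit 19 of the same 40 genes had their higher sum by day, and the median ratio was -0.05. The share of measured genes higher by day in those cells was 48.1%.

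Ndufb9 had a day median of 131 CPM, a night median of 43.8 CPM and a ratio of 1.27. Sdhb, the iron and sulfur subunit of complex II, had medians of 264.2 and 101 CPM and a ratio of 0.96. Cox6b1, a subunit of complex IV, had medians of 190.8 and 121 CPM, a ratio of 0.81, and 5 day cells above the highest night cell at 251.2 CPM. Ndufa4 had medians of 257.1 and 108 CPM and was read in all 20 day and 16 night cells. The exceptions were Ndufa5 at -0.58 and Ndufv3 at -0.31. Summed over the 40 genes, day cells ran from 2795 to 12960.5 CPM with a median of 5205 CPM, and night cells from 2545 to 6268 CPM with a median of 4303 CPM. The highest day cell was S411, and the next was at 9982 CPM. The medians of this sum in the other active cells were 5282 and 5133 CPM. The night Vip cells thus had the lowest of the 4 medians, and the ranges of all 4 sets overlapped. Microglia marker RNA summed to 1131 CPM over the day side and 277 CPM over the night side, and without the cells at 100 CPM or more of it (13 day and 12 night cells left) 32 of the 40 genes were higher by day.

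**Figure D4:**
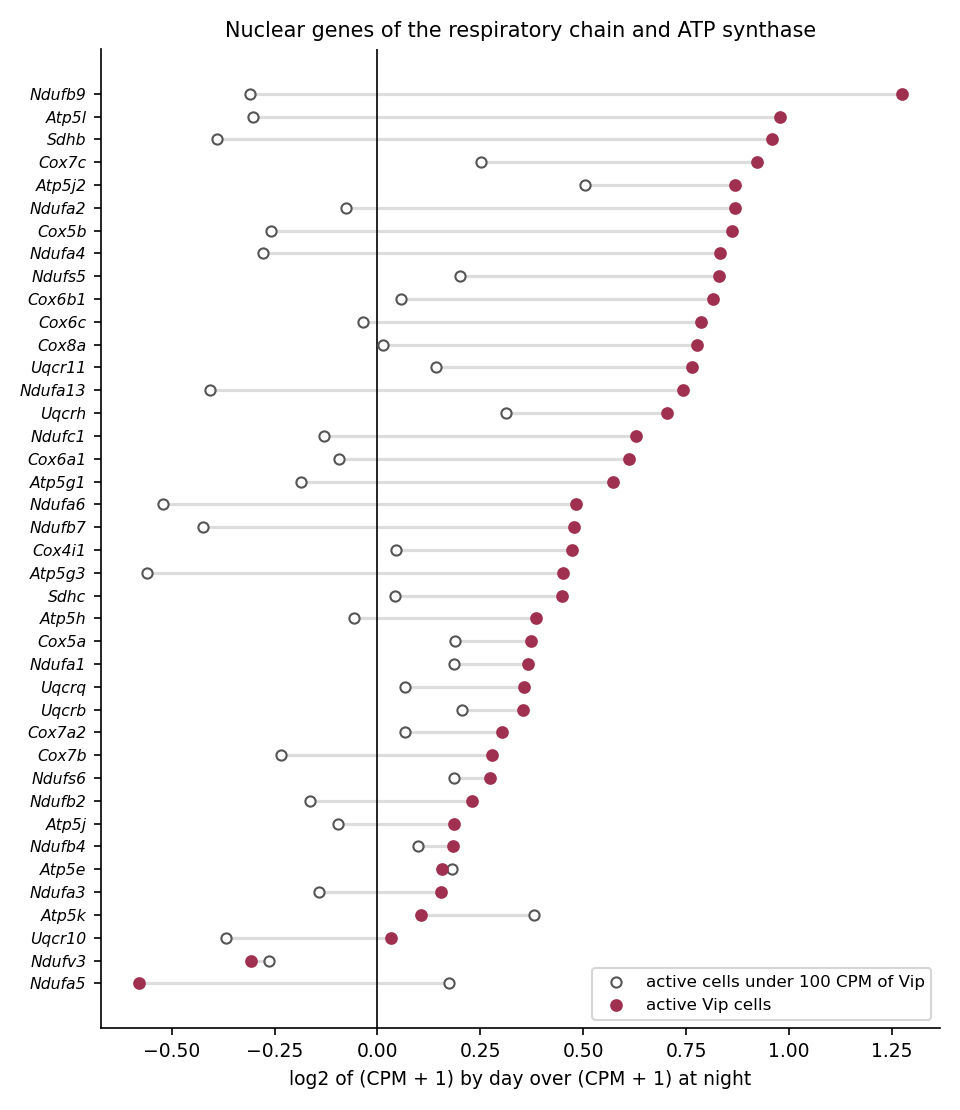
Log2 ratio of day over night for 40 nuclear genes of the respiratory chain and ATP synthase, in active Vip cells (filled) and in active cells under 100 CPM of Vip (open), sorted by the former. In Vip cells 38 of 40 points lie to the right of 0, and in the other cells 19 do.

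The 11 measured mitochondrially encoded genes were all higher by day in the sums, against 47.7% of all genes. The median ratio of these 11 genes was 0.99, but their lean to day rested on few cells. Their sum per cell had a day median of 4268 CPM and a night median of 3348 CPM, and day cell S92 held 92468 CPM against 45634 CPM in the next day cell. Without S92 7 of 10 measured genes were higher by day, and among cells of at least 1000 CPM of Vip 1 of 10 was. The cytosolic ribosomal protein genes, a set added after seeing the data, had 69 of 93 members higher by day and a median of 0.38, against 59 and 0.10 in the other active cells. Of all genes 47.7% were higher by day in the Vip cells and 48.1% in the other active cells.

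Immediate early genes, which neurons switch on with activity, leaned toward day. Of 37 measured 28 were higher by day, 11 by at least 2-fold, and 3 were at least 2-fold higher at night; the median was 0.46. Over all genes the shares were 47.7%, 21.6% and 26.1%. In the other active cells 30 of 37 were higher by day with a median of 0.56, so this lean was present in both sets. Within the cFOS- Vip cells 14 were higher by day, and within the cFOS+ cells 31. Fos ran from 308 to 11175 CPM by day with a median of 2452 CPM, and from 0 to 15716 CPM at night with a median of 1268 CPM. Its highest cell was at night, S252, which was labelled cFOS-, and the ratio was 1.04 with it and 1.75 without it. The Fos level was not higher in the cFOS+ than in the cFOS- cells on either side. It was 4049 CPM in the cFOS+ and 4485 CPM in the cFOS- day cells, and 1122 and 3521 CPM at night. The cFOS- values came from 3 day and 7 night cells, and S252 is 1 of these 7. Dusp1, a phosphatase that limits MAP kinases, had medians of 1084 and 456.9 CPM and a ratio of 1.18. Nr4a3, a nuclear receptor induced by activity, was read in 12 day and 6 night cells with a ratio of 4.12, but -2.28 in the cFOS- cells. Klf2, a transcription factor, had a ratio of 2.46 with reads in 5 day and 2 night cells. Crem, a regulator of cAMP responses, had medians of 57.5 and 0 CPM and a ratio of 2.28, but -0.54 in the cFOS- cells. Npas4, induced by calcium entry, was the reverse: it was read in 1 day cell at 1.02 CPM and in 8 night cells up to 334.4 CPM.

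Among cAMP and calcium signalling genes 26 of 47 had their higher sum by day, against 47.7% of all genes. The median was 0.11, so the list as a whole was near equal. Single members stood out. Rasl11b, a small GTPase of the RAS family, ran from 0 to 6559 CPM by day with a median of 317.04 CPM, and from 0 to 1072 CPM at night with a median of 0. It was read in 14 day and 5 night cells (13 and 5 after thinning), its ratio was 3.12, and it was 2.10 in the other active cells. Rgs16, which shortens G protein signals and is rhythmic in the SCN, had 9 day and 5 night cells at 10 CPM or more and a ratio of 2.50, against 2.01 in the other active cells. Pde10a, a phosphodiesterase that degrades cAMP and cGMP, had medians of 430 and 42.1 CPM and a ratio of 2.04, against 1.52 in the other active cells. Pde1a, a phosphodiesterase activated by calmodulin, was read in 5 day cells and no night cell, at 22.8 CPM over the day side. Pde4a was read in 9 day and 3 night cells with a ratio of 5.11. It was -0.07 in the cFOS- cells and -0.04 in the other active cells.

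In each list of channel and receptor genes the share higher by day was somewhat under that of genes at large, a gap of few genes. Of all genes 47.7% were higher by day and 26.1% at least 2-fold higher at night. Of 38 measured potassium channel genes 15 were higher by day and 15 were at least 2-fold higher at night, with a median of -0.52, against 20 of 39 and 0.13 in the other active cells. For 35 sodium, calcium and HCN channel genes the count higher by day was 14 and the median -0.28, against 14 of 34 and -0.18 in the other active cells. Of these 35, 11 were at least 2-fold higher at night. GABA genes had 8 of 20 higher by day and a median of -0.39, against 12 of 21 and 0.13 in the other cells. At least 2-fold higher at night were 7 of 20 GABA genes and 7 of 20 glutamate receptor genes. Glutamate receptor genes had 6 of 20 and -0.75, against 5 of 19 and -0.45, so they lay toward night in both sets. Most of these genes were read in few cells. Kcnd3, a potassium channel gene, was read in 3 day and 10 night cells with a ratio of -1.94, and of -2.08 in the other active cells. Kcnip3, which encodes a partner of such channels, had a ratio of -1.82, but 4.10 in the cells with higher numbers in their titles. Itpr2, a calcium release channel of the endoplasmic reticulum, had a ratio of 3.82 with reads in 7 day and 4 night cells. Gabrg3, a subunit of the GABA-A receptor, was read in 3 day cells at up to 0.2805 CPM and in 11 night cells at up to 309.9 CPM. Those 11 all lay above the highest day cell. The transmitter enzymes Gad1 and Gad2 had ratios of 0.16 and 0.58. Scn9a, a sodium channel gene, had medians of 0 and 19.99 CPM and a ratio of -1.73.

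In the sums, transcription factor genes of SCN identity lay more often toward night, but this lean was not seen without the highest cells. Most secretory genes were level. Of 17 measured SCN transcription factor genes 5 were higher by day, 3 by at least 2-fold, and 7 were at least 2-fold higher at night. Over all genes the shares were 47.7%, 21.6% and 26.1%. On all 3 scales 3 members passed by day and 3 at night, and without the highest cells 8 of the 17 were higher by day. The median of the list was -0.54, and -0.01 without the highest cells. The other active cells gave 13 of 18 higher by day and a median of 0.24. Six6 had a ratio of -1.56 and was read in 6 cells of each side. Six3, which is needed to form the SCN, had medians of 2.90 and 143 CPM and reached 10 CPM in 9 day and 15 night cells, a ratio of -1.18. Lhx1, which controls coupling peptides of the SCN, had a ratio of -0.54. Of 35 secretory pathway genes 17 were higher by day and the median was -0.02. Only Stx1a (1.45) and Scg3 (1.12) were at least 2-fold higher by day, and Syt1 (-1.97) and Pdia6 at night, and the ratio of Stx1a was -0.21 in the cells with lower numbers in their titles. Scg2, Chga and Cpe, which load and process peptides in granules, had ratios of -0.22, -0.44 and -0.24, and Snap25, part of the release machinery, of 0.01. Pdia6, a folding enzyme of the endoplasmic reticulum, had a median of 0.16 CPM by day and 482.6 CPM at night. It was read in 10 day and 17 night cells (9 and 17 after thinning), 6 night cells lay above the highest day cell at 728 CPM, and its ratio was -1.89 against -0.14 in the other active cells. Hspa5, the chaperone BiP of the same compartment, had medians of 1043 and 2103 CPM and a ratio of -0.83. Of 16 heat shock and cold-inducible genes 9 were higher by day, and none passed 2-fold on either side.

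**Figure D5:**
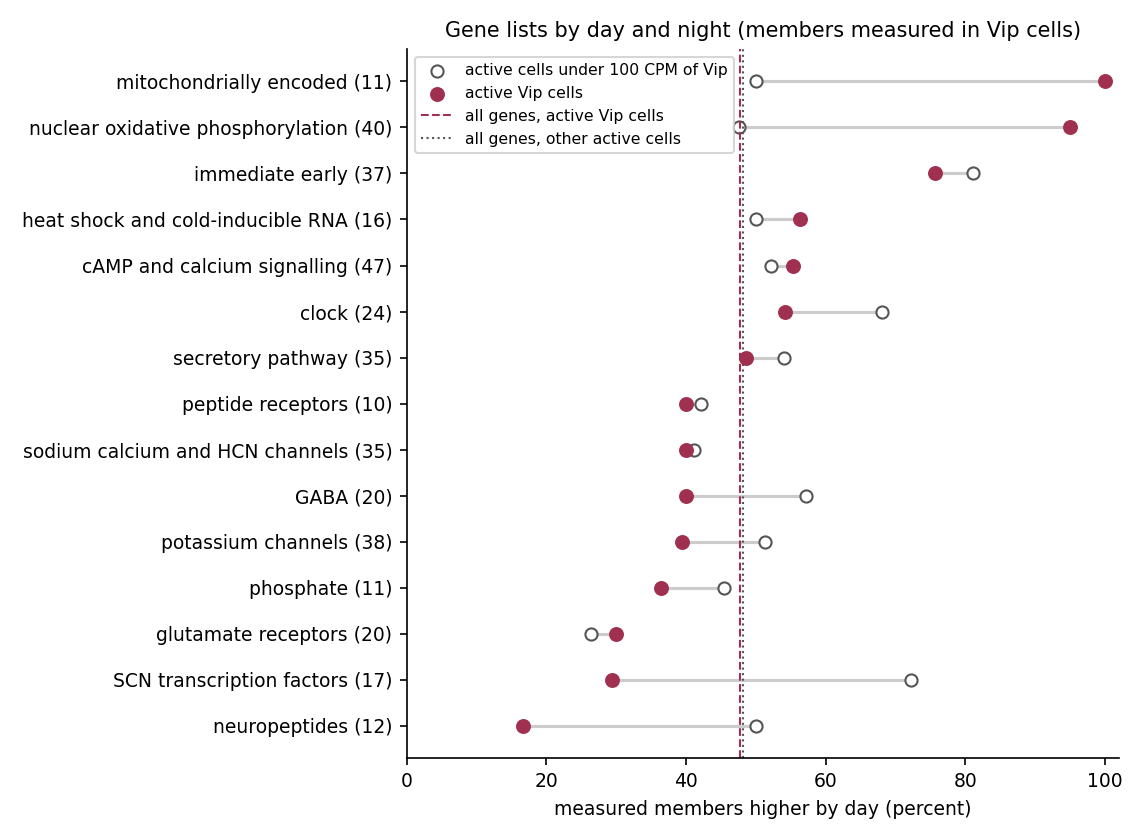
Percent of the measured members of 15 gene lists that were higher by day, in active Vip cells (filled) and in active cells under 100 CPM of Vip (open), with the number measured in Vip cells in brackets; vertical lines give the same percent over all genes, 47.7 and 48.1. Nuclear oxidative phosphorylation (38 of 40) lay far above its line in the Vip cells, and neuropeptides (2 of 12) far below. The neuropeptide list includes Vip, which chose the cells and was under the limit of 5 CPM in the other active cells.

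Ranked over all genes by the smallest of 3 ratios (the sum, the mean over cells and the sum without the highest cell), the genes farthest toward day were Supv3l1, Opa3, Sord, Zfp809, Hyls1, Cmc2, H2-T22, Nkd1, Eea1, Plekhm1, Cul4a and Sepp1. Farthest toward night were Cep89, Lrp10, Map2k5, Wdr11, Gabrg3, Mpp3, Zfyve16, Fkbp14, Mtmr4, Mettl6, Top3b and Lpin1. Each was read in only 5 to 11 cells of its higher side. Supv3l1, a helicase that degrades mitochondrial RNA, was read in 6 day cells up to 589 CPM and in no night cell, a log2 ratio of 6.36. Its sum of 81.3 CPM was 3260-fold above the level of 3 counts over the night side. Fkbp14, a folding enzyme, was read in 6 night cells up to 482.7 CPM and in no day cell, a log2 ratio of -6.14. Its sum was 3022-fold above 3 counts over the day side. Both folds cover counting error only and not RNA missed in single cells, so they are no lower bounds. Map2k5, the kinase upstream of ERK5, was read in 4 day cells up to 12.4 CPM and in 11 night cells up to 510.6 CPM. Cell S411 was the highest cell of 6 of the 12 day genes, and S560 of 4 of the 12 night genes. S411 was also the cell with the most microglia marker RNA, and the part of that RNA in these ratios was not tested. These 24 genes were picked for the size of their ratios in the Vip cells. Smaller ratios in any other set of cells could follow from that choice alone. In the other active cells the ratios of these 24 genes were smaller in size, for example 1.10 for Supv3l1 and 0.10 for Map2k5. Some had the other sign there, with -3.93 for Eea1, 2.93 for Lrp10 and 0.89 for Fkbp14.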

How the data were processed

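All main values come from the whole-number read counts that the authors deposited, for 22800 gene symbols in every cell. They also deposited normalized values, a signal without unit; each cell's values were its counts over a single factor (relative tolerance 1e-06), used as an alternative. STAR, DESeq2 and the build GRCm38.p4 are named per the submitters' processing notes, without roles; the counting tool, annotation and strand setting were found in no label or header. No molecular identifiers are mentioned, so intervals cover counting error only.

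Each gene's counts were added up within a side and scaled to CPM, with exact Poisson 95% intervals and exact Clopper-Pearson intervals for shares. Ratios used a pseudocount of 1 CPM. Because each side was 1 sample, no test was run, and "called" means past 2-fold. The calculation was checked on simulated data. List members needed 5 CPM in one side. No filter on cells or doublet caller was applied. Each library came from 1 pipette, but this does not keep out RNA of other cell types, which was present as given above.

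The cells, gene lists and alternatives were chosen with earlier results of these data known. Vip, Fos, Slc20a1, Slc20a2 and Xpr1 were always given, and from each list described up to 4 members at 20 CPM or more, those with the largest value of the smallest of 3 ratios (sum, mean over cells, sum without the highest cells); several of these, read in few cells, are left to the counts. Over all genes the 12 farthest on each side were named from those with a read in 25% of cells and 1 direction in the sum, the mean over cells, the sum without the highest cells, the thinned share and both cFOS labels. Predicted, ribosomal protein and mitochondrial genes were left out of that rank. Other members were named after their values were seen, and some channel and receptor genes are not reported here. Gene positions are from GENCODE M21. Python 3.11.15, numpy 2.4.6, pandas 2.3.3 and scipy 1.17.1 were used.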

Additional observations from a re-analysis of the deposited data

How the results depend on the processing

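Of 118 single genes given 16 alternatives each, 87 were past 2-fold, and 65 of these kept their direction in every alternative. A part of the genes had been named because they kept 1 direction in several of these alternatives. A change of pseudocount cannot turn a sign. The count of 65 was thus partly set by the choice of genes and is no measure of robustness. Of the 87, 4 (Avp, Fkbp14, Mettl6 and Pde1a) had a ratio of 0 in an alternative. That is the ratio of a gene without a read on either side, so it is no sign of equal levels. The other 18 had the opposite sign in 21 cases. In the cells with higher numbers in their titles (9 day and 5 night cells) the log2 ratio became 0.078 for Cck, 0.56 for Fam213a, 4.10 for Kcnip3, 0.027 for Lrp10 and Npas2, 0.026 for Rpn1 and -0.38 for Nms. The shared value of Lrp10 and Npas2 is of the size that a single day read gives. For these genes it marks lost detection and not a turned direction. In the cFOS- cells alone (3 and 7 cells) it became -4.16 for Avpr1a, -0.54 for Crem, 0.98 for Csnk1d, -1.40 for Csnk1e, -0.028 for Nms, -2.28 for Nr4a3, -4.74 for Oprl1, -0.066 for Pde4a and -1.60 for Tef, and as the mean of the cFOS+ and cFOS- ratios -0.13 for Avpr1a and -1.54 for Oprl1. In the cells with lower numbers it became -0.21 for Stx1a. A Vip limit of 1000 CPM gave -0.57 for mt-Cytb and -0.41 for mt-Nd4.

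Vip chose the cells, so the values of its ratio, -0.79, are a description: -0.87 and -0.94 with limits of 10 and 1000 CPM, -0.63 as the mean over cells, -0.59 on the normalized values, -0.84 without the highest cells, -0.83 in cFOS+ and -1.73 in cFOS- cells, -1.28 as the mean of these, -0.97 without cells with microglia markers, -0.83 and -0.50 in cells with lower and higher numbers, -0.63 after thinning, -0.69 without S92 and -0.82 without S411 and S560.

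The count at least 2-fold higher at night, 1383, became 3520 in the cFOS- cells, 2813 as the mean of the cFOS+ and cFOS- ratios, 2915 with a limit of 5 CPM, 458 with 100 CPM and 3427 with no filter; on all 3 scales 16.7% of the genes tested (1162) became 43.0% (3140) in the cFOS- cells, and 17.9%, 12.0% and 8.96% under the last 3. By day 1057 became 1912 in the cFOS- cells, 1817 in the cells with higher numbers, 2413, 433 and 2940, and on all 3 scales 11.3% (789) became 5.49%, 25.5% (1559), 12.8%, 9.47% and 6.41% in that order. Immediate early genes higher by day were 14 in the cFOS- cells, and phosphate genes were 1 there, 1 as the mean of the ratios, 2 without cells with microglia markers and 2 in the cells with higher numbers. The clock and nuclear oxidative phosphorylation counts stayed within 1.5 times under every alternative. The causes were not tested. The alternatives without S92, and without S411 and S560, were chosen after seeing the data. No paired analysis was possible because the labels give cells no shared replicate number. With 1 sample a side, depth gives narrow intervals for sums but does not limit or describe the spread between mice or slices.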

Other observations

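Ranked by pairs of cells, another set of genes came first. In this measure, added after seeing the data, each of the 380 pairs of a day and a night cell was scored for the higher level, with levels under 1 CPM taken as equal and equal pairs shared between the sides. Usmg5, a small subunit of ATP synthase that is in none of the lists, was higher by day in 81.1% of pairs. It ran from 9.44 to 303.5 CPM by day with a median of 112.8 CPM and from 0 to 152.5 CPM at night with a median of 54.1 CPM, and its log2 ratio was 1.25, against 0.01 in the other active cells. Mllt11 followed with 80.9%, Dbp with 80.0% and Srp68, part of the signal recognition particle, with 79.7%. Srp68 had medians of 93.9 CPM by day and 0 at night and was read in 15 day and 4 night cells. Uqcrc2, a core subunit of complex III, had medians of 293.1 and 0.313 CPM and was higher by day in 77.4% of pairs. Toward night the first were Ncoa5, a nuclear receptor coactivator, higher by day in 16.3% of pairs with medians of 0 and 70.9 CPM, and Tmem130, at 17.1% with medians of 1173 and 2278 CPM. Pdia6 was at 18.4%. Rpn1, which attaches sugars to proteins in the endoplasmic reticulum, was at 21.3%, with medians of 0 and 341.6 CPM, and was read in 7 day and 18 night cells. In the other active cells the log2 ratios were 0.57 for Ncoa5, -0.12 for Tmem130 and -0.23 for Rpn1, against -4.29, -0.95 and -1.46 here. The genes of this ranking were picked on the Vip cells, so smaller ratios elsewhere could follow from that choice alone.

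Silent Vip cells were few, 2 by day and 11 at night, and their values are given without comparison. Nr1d1 was at 565.3 and 2075 CPM in the day cells, and ran from 0 to 487.5 CPM at night with a median of 1.59 CPM. Slc20a2 was at 38.5 and 393.3 CPM by day, and ran from 0 to 1051 CPM at night with a median of 1.01 CPM.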
